A study of Mus musculus with 11 samples.

Results

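The genes of DNA replication origins and forks were followed through RNA-seq of neural progenitor cells (NPCs) in which the nuclease gene *Smg6* was to be deleted. The list held 47 genes, picked by name for their roles in origin licensing, the replicative helicase, the polymerases, the sliding clamp and the supply of nucleotides. The rule uses no measured value, but the list was drawn up with earlier results of these data known. All 47 were found among the 53801 gene identifiers counted, and all 47 passed the filter on low counts in every comparison. SMG6 is an endonuclease of nonsense-mediated mRNA decay (NMD), and the design asks what its loss does to the transcriptome.

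The 11 libraries fell into 3 groups, all from cells cultured from E13.5 mouse brains on a C57BL/6 mixed with 129SV background, and all homozygous for the floxed *Smg6* allele (*Smg6* Flox/Flox). The Ctr group carried the RosaCreER transgene, which encodes a recombinase held inactive until 4-hydroxytamoxifen (4-OHT) binds it, and received no 4-OHT (n = 3). The Ctr + 4-OHT group had no Cre transgene and received 4-OHT (n = 4). The *Smg6*-iKO group carried RosaCreER and received 4-OHT (n = 4), so that it shared the transgene with Ctr and the drug with Ctr + 4-OHT. Per the labels 4-OHT was given at 1 µM for 3 days, and RNA was taken 6 days after treatment began. The Rosa locus that drives CreER is active in most cell types, and deletion by cell type was not measured. No control combined active Cre recombinase with an intact *Smg6* gene. Every library came from the culture of a single embryo, named here as in the labels, and embryos SMH_128, SMH_132 and SMH_133 each gave a Ctr and a *Smg6*-iKO library.

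Before a cell copies its DNA, the origin recognition complex (ORC), CDC6 and CDT1 load rings of the MCM helicase onto origins in G1 phase, a step called licensing. At the start of S phase a kinase, CDC45 and the GINS complex turn the loaded rings into active helicases, behind which DNA polymerases work on both strands with the clamp PCNA holding them to the template. Many of these genes are transcribed from late G1 phase into S phase under control of E2F factors, and in the embryonic brain they are characteristic of dividing progenitors as opposed to neurons.

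Each library held between 26418249 and 33756875 counts. Read over the whole gene, *Smg6* (chromosome 11) stood at 66.0 ± 4.57 CPM (counts per 1000000 counts of the library after TMM scaling, mean ± SD, n = 4) in *Smg6*-iKO, against 69.3 ± 3.22 in Ctr + 4-OHT (n = 4) and 74.4 ± 4.96 in Ctr (n = 3). It was not called against either control (edgeR adjusted p of 0.703 and 0.148), but was called lower against Ctr with the embryo as a block (log2 fold change -0.15, edgeR adjusted p = 0.043). A count over the whole gene does not show whether the floxed exons were removed, so it leaves the labels unchecked. The 8 markers of neural progenitors summed to 4330 to 5430 CPM in the 11 libraries, so that the defining genes of neural stem cells were present, while those of microglia summed to no more than 1.55 CPM and all 5 markers of red blood cells were below 0.1 CPM. The 5 mesenchymal markers ranged widely, from 233 to 1240 CPM, with the highest sum in the *Smg6*-iKO library of embryo SMH_127. Some libraries stood apart within their group over the replication genes. Embryo SMH_126 was the lowest Ctr + 4-OHT library for 39 of the 47 genes, embryo SMH_128 was the lowest Ctr library for 38, and embryo SMH_133 was the highest library for 37 in Ctr and for 33 in *Smg6*-iKO.

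Most replication genes were slightly lower in *Smg6*-iKO than in either control, and few of the single differences passed the test against Ctr + 4-OHT once adjusted over all genes. Against Ctr + 4-OHT, 45 of the 47 genes had a negative log2 fold change, with a median of -0.26 beside a median of 0.01 over all 17558 genes tested. Only 5 were called at an adjusted p under 0.05 (edgeR), at a background of 1.17% of all genes tested in either direction. *Gmnn*, *Mcm3*, *Dbf4* and *Rfc2* fell, where the background of lower calls was 0.416%, and *Orc4* rose, where that of higher calls was 0.757%. Without adjustment, 39 of the 47 had a p under 0.05 (edgeR), as did 2930 of all 17558 genes tested. In bulk RNA, fewer cells of a type and less RNA per cell cannot be told apart.

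Against Ctr the median was -0.24 beside 0.01 over all 17974 genes tested, and 20 genes were called (edgeR), at a background of 9.25%. Of these, 19 fell, at a background of 4.98%, and *Orc4* rose, at a background of 4.27%. Both comparisons rest on the same 4 *Smg6*-iKO libraries. All 5 genes called against Ctr + 4-OHT were also called against Ctr in the same direction. Over all 17512 genes tested in both, 0.343% were called lower in both and 0.582% higher in both.

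With the embryo as a block, which compares the libraries of embryos SMH_128, SMH_132 and SMH_133 within each embryo, 29 genes were called against Ctr (edgeR), 28 of them lower and 1 higher, at a background of 21.4% in either direction, 11.2% lower and 10.3% higher. This added *Orc1*, *Orc6*, *Mcm4*, *Mcm7*, *Mcm10*, *Gins1*, *Gins3*, *Rfc4* and *Tk1*, and took no call away. The number of calls against Ctr + 4-OHT depended on single libraries. It was 12 without embryo SMH_126, 2 without embryo SMH_125 or SMH_129 of Ctr + 4-OHT or embryo SMH_128 of *Smg6*-iKO, 1 without embryo SMH_133, and 0 without embryo SMH_131 of Ctr + 4-OHT or embryo SMH_127 or SMH_132 of *Smg6*-iKO. In those fits with 0 calls by edgeR the medians were -0.24, -0.24 and -0.26. Against Ctr it was 7 without embryo SMH_133 of Ctr, 10 without embryo SMH_132 of Ctr, and 13 without embryo SMH_127, SMH_132 or SMH_133 of *Smg6*-iKO. DESeq2's Wald test called 26 of the 47 in each comparison. Against Ctr + 4-OHT it also called more of all genes than edgeR, as given in the closing section. Its count over all genes against Ctr is not given, so the 26 there have no share beside them.

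**Figure D1:**
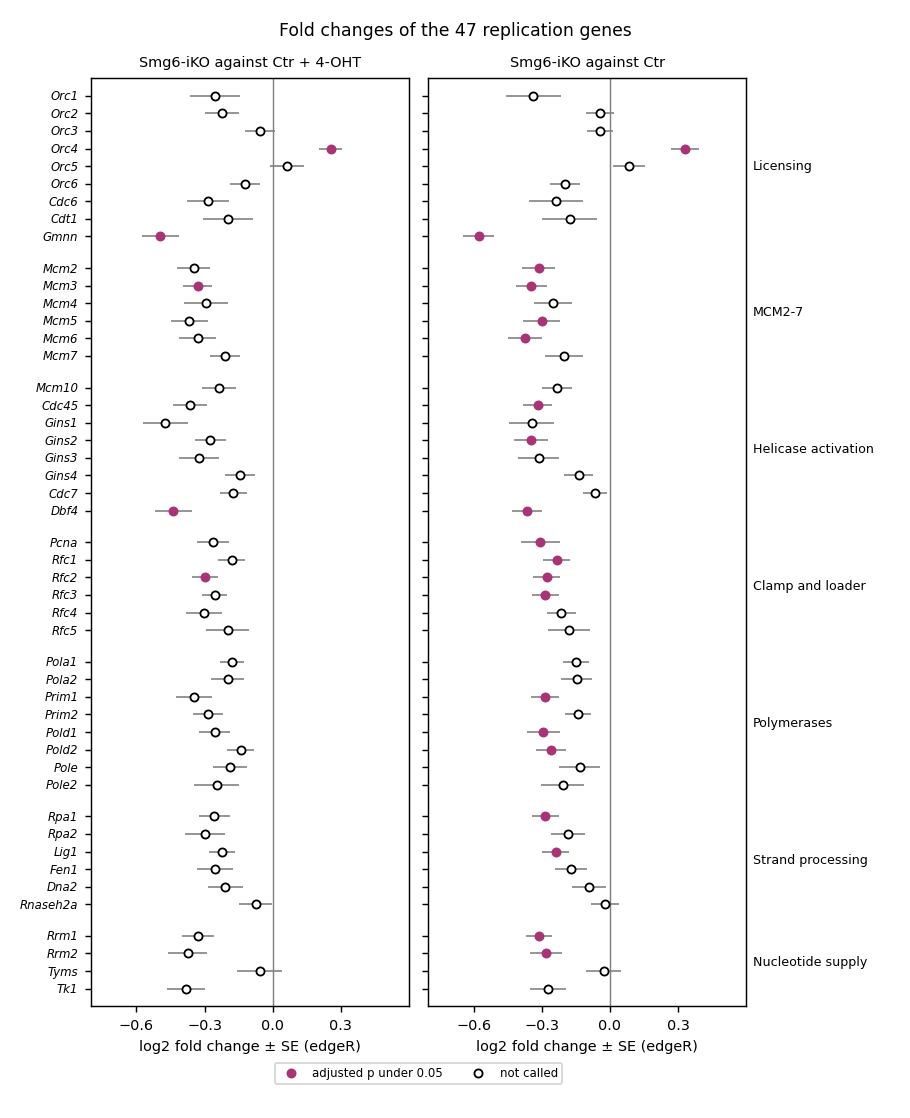
Log2 fold changes of the 47 replication genes (x axis, ± SE, edgeR) in *Smg6*-iKO against Ctr + 4-OHT (left, n = 4 and 4) and against Ctr (right, n = 4 and 3), ordered by complex. Filled points are the 5 (left) and 20 (right) genes with an adjusted p under 0.05. In each panel 45 points lie left of 0, and *Orc4* is the filled point on the right.

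The levels themselves did not overlap for many of these genes. All 4 *Smg6*-iKO libraries lay below all 4 Ctr + 4-OHT libraries for 25 genes, where 5.99% of all genes tested did so, and below all 3 Ctr libraries for 29 genes, where 11.9% did. *Orc4* was the 1 gene that lay above all libraries of either control, where 5.03% of all genes tested lay above Ctr + 4-OHT and 11.4% above Ctr. For 23 genes every *Smg6*-iKO library was below all 7 control libraries (3.6% of all genes tested), and for *Orc4* every one was above (2.99%). Summed over the 47 genes, *Smg6*-iKO libraries held 2570 to 2790 CPM, Ctr + 4-OHT libraries 2930 to 3420 CPM and Ctr libraries 2940 to 3330 CPM, so the sums of *Smg6*-iKO lay below those of both controls with no overlap. The sums are ruled by the most abundant members and say little of the rarer ones.

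**Figure D2:**
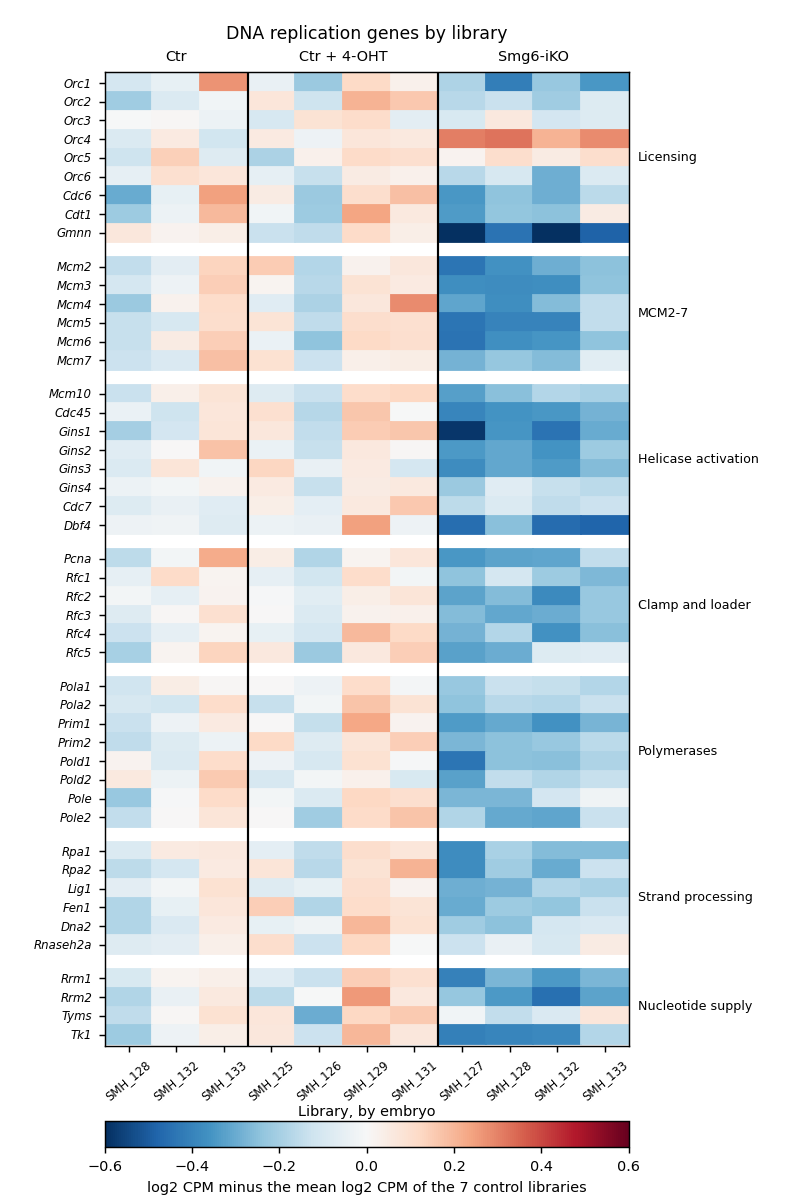
Heat map of the 47 genes (rows, by complex) in the 11 libraries (columns, by embryo). Colour gives log2 CPM minus the mean log2 CPM of the 7 control libraries, from -0.6 (blue) to 0.6 (red), with stronger values shown at those limits. The *Smg6*-iKO columns are blue in most rows and red for *Orc4*, and the columns of embryo SMH_126 in Ctr + 4-OHT and SMH_128 in Ctr are the bluer ones of the controls.

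The promoters of the members were searched for words that E2F factors bind. RefSeq gave a promoter of 250 bases before to 50 bases after a transcript start on GRCm38.p6 for 39 of the 47 genes. No window was held for *Gins1*, *Gins2*, *Gins4*, *Gmnn*, *Mcm4*, *Pole*, *Prim2* and *Rfc2*. One of the words TTTGGCGC, TTTCCCGC, TTTCGCGC or TTTGCCGC, on either strand, was in the promoters of 14 of the 39 genes (35.9%), and in those of 704 of all 27025 genes with a window (2.6%). The 6 genes called lower against Ctr that held such a word are shown here together with *Orc3*, which held one and had the smallest change of the licensing genes. Each line runs 5′ to 3′ in the direction of transcription, and capitals mark the words as read on either strand.
Mcm3 (chr1:20820265-20820294, minus strand, after the start): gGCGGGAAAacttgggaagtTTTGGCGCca
Mcm5 (chr8:75109340-75109383, plus strand): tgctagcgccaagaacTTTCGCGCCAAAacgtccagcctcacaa
Mcm6 (chr1:128359729-128359831, minus strand): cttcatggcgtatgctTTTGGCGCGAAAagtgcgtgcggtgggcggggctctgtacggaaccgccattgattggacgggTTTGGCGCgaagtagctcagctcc
Rfc3 (chr5:151651209-151651234, minus strand): aagtgacgtcgcacgcTTTCGCGCtc
Lig1 (chr7:13278841-13278870, plus strand, after the start): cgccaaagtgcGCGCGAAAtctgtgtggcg
Pold1 (chr7:44548766-44548787, minus strand, after the start): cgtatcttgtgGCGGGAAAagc
Orc3 (chr4:34614960-34614999, minus strand): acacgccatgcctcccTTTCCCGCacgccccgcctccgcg

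In the *Mcm5* stretch, and in the first run of capitals of the *Mcm6* stretch, words on opposite strands share letters. *Mcm3* held 2 words and *Mcm6* held 3, while *Orc3*, *Lig1* and *Pold1* each held 1 in the stretch shown. *Rfc3* held a further word, TTTCCCGC on the opposite strand, at the start itself, next to the stretch shown. The remaining genes with a word were *Orc1*, *Cdc6*, *Cdt1*, *Mcm7*, *Gins3*, *Pola1* and *Pole2*. *Orc4*, the gene that rose, had 3 windows and none of these words in them. Genes with a word had a median log2 fold change of -0.26 against Ctr + 4-OHT and -0.26 against Ctr (n = 14), and those with a window but no word had medians of -0.24 and -0.21 (n = 25). The ranges overlapped almost wholly, from -0.37 to -0.06 with a word and from -0.44 to 0.26 without one against Ctr + 4-OHT.

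Other promoter words were less particular to the list or not at all. The GC box GGGCGG, on either strand, was in 74.4% of the members' promoters and in 38.2% of all promoters, and overlapped no E2F word in the stretches shown. CCAAT was in 59% and 41.1%, and the cell cycle homology words TTTGAA or TTCGAA were in 23.1% and 21.7%. These matches describe letters in a window of 300 bases. They are no measure of a factor bound there.

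The licensing genes did not move as one (median -0.20 against Ctr + 4-OHT and -0.18 against Ctr, 9 genes). Against each control 1 of the 9 was called lower and 1 higher (edgeR). The lower one was *Gmnn* (ENSMUSG00000006715, chromosome 13 of GRCm38, from 24751845 to 24761923), which encodes geminin, the inhibitor that binds CDT1 and prevents a second licensing after S phase. Its level in *Smg6*-iKO was 17.2, 19.4, 17.4 and 18.8 CPM in embryos SMH_127, SMH_128, SMH_132 and SMH_133. In Ctr + 4-OHT it was 24.0, 23.7, 28.5 and 27.1 CPM (embryos SMH_125, SMH_126, SMH_129 and SMH_131), and in Ctr 27.6, 26.7 and 27.1 CPM (embryos SMH_128, SMH_132 and SMH_133). The highest *Smg6*-iKO library was thus below the lowest control library. *Gmnn* fell by 29.1% against Ctr + 4-OHT (log2 fold change -0.495 ± 0.08 SE, edgeR adjusted p = 0.0205) and by 0.58 on the log2 scale against Ctr (± 0.07 SE, edgeR adjusted p = 0.00158), the largest change of the 47 in both comparisons. Its call against Ctr + 4-OHT was lost without embryo SMH_131 of Ctr + 4-OHT or embryo SMH_127, SMH_132 or SMH_133 of *Smg6*-iKO, with log2 fold changes between -0.54 and -0.45 over all fits that left out 1 library. Against Ctr it held in all 7 such fits.

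The one gene that rose was *Orc4* (ENSMUSG00000026761, chromosome 2 of GRCm38, from 48902824 to 48950277), a subunit of the complex that binds origins. It reached 74.9, 75.8, 69.8 and 73.7 CPM in *Smg6*-iKO, compared with 62.7, 59.2, 63.5 and 62.9 CPM in Ctr + 4-OHT and 57.0, 62.7 and 55.8 CPM in Ctr, so that every *Smg6*-iKO library was above all control libraries. The log2 fold change was 0.255 ± 0.05 (SE, edgeR adjusted p = 0.0469) against Ctr + 4-OHT, just inside the threshold, and 0.33 ± 0.06 (SE, edgeR adjusted p = 0.0114) against Ctr. Against Ctr + 4-OHT the call was lost in each of the 8 fits without 1 library, in which the log2 fold change stayed between 0.23 and 0.27 and the edgeR adjusted p between 0.0699 and 0.156. It was also lost with DESeq2 size factors, with no filter on low counts and with the length correction (edgeR adjusted p of 0.051 to 0.0927). Against Ctr the call held in all 7 fits and under all 10 other settings. Its rise was seen within each of the 3 paired embryos, with log2 ratios of 0.41, 0.15 and 0.40.

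The other subunits of ORC were not called against either control, and their values differed. *Orc5* was at 0.06 ± 0.08 against Ctr + 4-OHT and 0.08 ± 0.07 against Ctr (log2 ± SE), and without embryo SMH_125 the first value turned to -0.009. *Orc3* hardly differed, at 84.1, 94.1, 83.2 and 85.1 CPM in *Smg6*-iKO, 83.8, 95.5, 97.2 and 86.0 CPM in Ctr + 4-OHT and 89.7, 90.4 and 87.8 CPM in Ctr. The 3 groups overlapped fully, and the log2 fold changes were -0.06 ± 0.07 and -0.04 ± 0.06 (SE).

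*Orc2* was -0.22 ± 0.08 against Ctr + 4-OHT but -0.04 ± 0.06 against Ctr. *Orc1*, the subunit whose level rises and falls with the cell cycle, was -0.255 ± 0.11 and -0.34 ± 0.12, and *Orc6* was -0.12 ± 0.07 and -0.20 ± 0.07. Both were called lower against Ctr with the embryo as a block (edgeR adjusted p of 0.0205 and 0.037). The loading factors *Cdc6* (-0.28 ± 0.09 and -0.24 ± 0.12) and *Cdt1* (-0.20 ± 0.11 and -0.18 ± 0.12) were called in none of the 3 fits. Whether the fold changes of *Gmnn* and *Cdt1* differ was not tested.

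**Figure D3:**
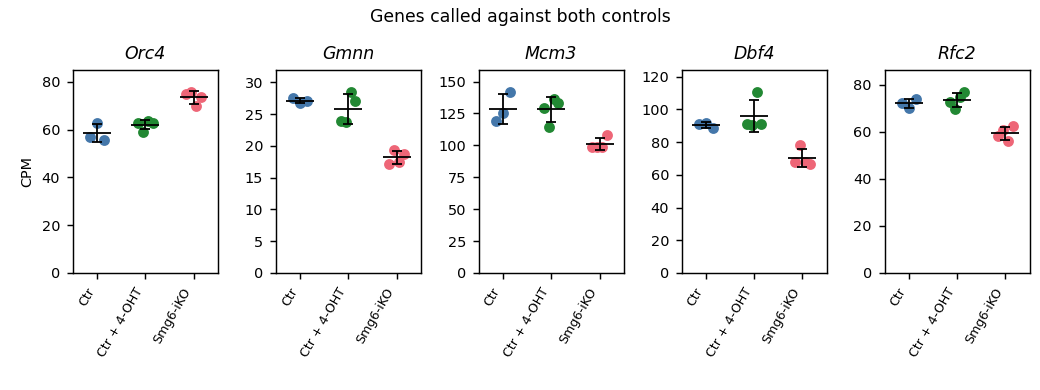
CPM (y axis, from 0) of the 5 genes called in *Smg6*-iKO against both controls, in Ctr (blue, n = 3), Ctr + 4-OHT (green, n = 4) and *Smg6*-iKO (red, n = 4). Points are libraries, and bars give the mean ± SD. In all 5 panels the *Smg6*-iKO points do not overlap the control points, lying above them for *Orc4* and below them for *Gmnn*, *Mcm3*, *Dbf4* and *Rfc2*.

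All 6 subunits of the MCM helicase had negative log2 fold changes in *Smg6*-iKO, from -0.37 (*Mcm5*) to -0.21 (*Mcm7*) against Ctr + 4-OHT and from -0.37 (*Mcm6*) to -0.20 (*Mcm7*) against Ctr. These 6 proteins form the ring that unwinds DNA at the fork. *Mcm3* was called against Ctr + 4-OHT, and *Mcm2*, *Mcm3*, *Mcm5* and *Mcm6* against Ctr (edgeR). With the embryo as a block all 6 were called lower. Their summed level was 585 to 671 CPM in *Smg6*-iKO, 675 to 820 CPM in Ctr + 4-OHT and 690 to 840 CPM in Ctr. The top of the *Smg6*-iKO range came close to the bottom of either control range but did not reach it.

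*Mcm3* (ENSMUSG00000041859, chromosome 1 of GRCm38, from 20802968 to 20820312) was at 99.1, 98.5, 98.8 and 108.4 CPM in *Smg6*-iKO. Its control levels were 129.4, 114.3, 136.2 and 133.1 CPM in Ctr + 4-OHT and 118.9, 125.3 and 141.9 CPM in Ctr, all above those of *Smg6*-iKO. It fell by 20.5% against Ctr + 4-OHT (log2 fold change -0.33 ± 0.06 SE, edgeR adjusted p = 0.0407) and by 0.35 on the log2 scale against Ctr (± 0.07 SE, edgeR adjusted p = 0.0136). The call against Ctr + 4-OHT remained in 1 of the 8 fits without 1 library (the one without embryo SMH_126), with log2 fold changes from -0.38 to -0.30, and that against Ctr in all 7.

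*Mcm5* had the largest fold change of the ring against Ctr + 4-OHT but a wider spread. It was at 83.4, 85.7, 85.8 and 102.2 CPM in *Smg6*-iKO, at 119.7, 101.9, 121.9 and 121.0 CPM in Ctr + 4-OHT and at 102.7, 105.6 and 121.9 CPM in Ctr. The library of embryo SMH_133 in *Smg6*-iKO lay just above that of embryo SMH_126 in Ctr + 4-OHT, so these groups overlapped, while Ctr stayed narrowly apart. The log2 fold change was -0.37 ± 0.08 (SE, edgeR adjusted p = 0.0634) against Ctr + 4-OHT and -0.30 ± 0.08 (SE, edgeR adjusted p = 0.0479) against Ctr, where the call was kept in 1 of 7 fits without 1 library.

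*Mcm7* was at 108.3, 112.2, 110.2 and 125.9 CPM in *Smg6*-iKO, 140.4, 120.5, 135.1 and 136.1 CPM in Ctr + 4-OHT and 120.7, 123.9 and 149.6 CPM in Ctr. These groups overlapped through embryo SMH_133. *Mcm7* was called only with the embryo as a block (log2 fold change -0.175, edgeR adjusted p = 0.014), where it was lower in each embryo (log2 ratios of -0.11, -0.17 and -0.25).

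Per kb of exon, *Mcm3*, *Mcm4*, *Mcm5*, *Mcm6* and *Mcm7* lay within a narrow band of levels in Ctr, from 27.6 ± 2.58 CPM per kb for *Mcm5* to 34.3 ± 3.17 for *Mcm3* (SD, n = 3), and neighbours in that order did not differ beyond their SD. *Mcm2* was lower, at 18.8 ± 1.93. In *Smg6*-iKO the order began with the same gene, with *Mcm2* at 15.1, *Mcm5* at 22.4 and *Mcm3* at 27.0 CPM per kb.

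**Figure D4:**
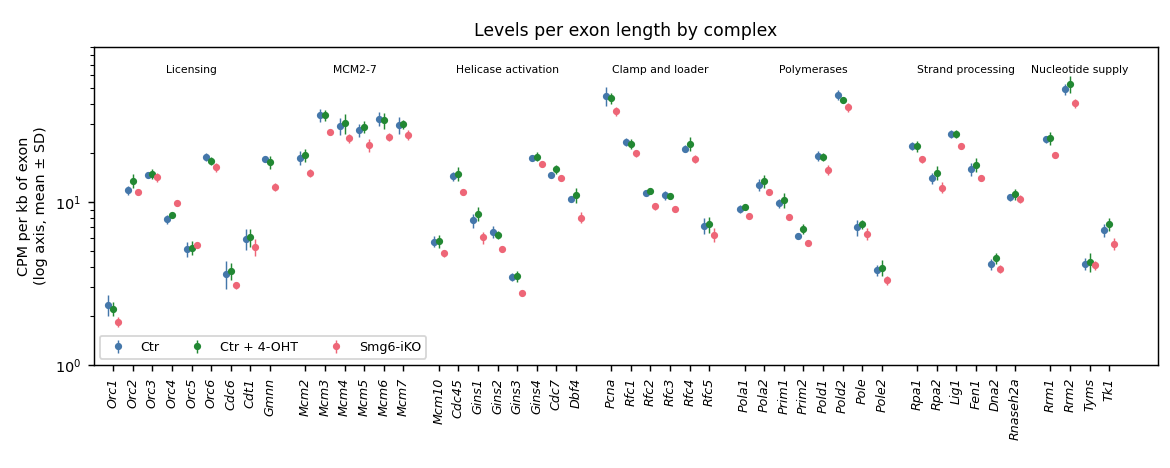
Levels of the 47 genes as CPM per kb of exon (y axis, log scale) in Ctr (blue, n = 3), Ctr + 4-OHT (green, n = 4) and *Smg6*-iKO (red, n = 4), mean ± SD, by complex. The length covers all annotated exons of a gene. All MCM genes other than *Mcm2* lie in one band, while the subunits of GINS and of the polymerases are spread out, and red points lie below blue and green ones in most columns.

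The factors that activate the helicase were the group with the largest share of genes without overlap between *Smg6*-iKO and the controls. Of these 8 genes, 7 had all *Smg6*-iKO libraries below all 7 control libraries, where 3.6% of all genes tested did, *Gins4* being the exception. Whether this group differs from the others was not tested. The 8 genes summed to 244 to 265 CPM in *Smg6*-iKO, 289 to 340 CPM in Ctr + 4-OHT and 294 to 309 CPM in Ctr. The median log2 fold changes were -0.30 and -0.315. *Dbf4* was called lower against Ctr + 4-OHT, and *Cdc45*, *Gins2* and *Dbf4* against Ctr (edgeR). The embryo block added *Mcm10*, *Gins1* and *Gins3*.

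*Dbf4* (ENSMUSG00000002297, chromosome 5 of GRCm38, from 8396973 to 8422716) encodes the regulatory subunit that activates the CDC7 kinase, which phosphorylates the MCM ring. Its level was 68.0, 78.5, 67.8 and 66.8 CPM in *Smg6*-iKO against 91.0, 90.5, 110.7 and 91.2 CPM in Ctr + 4-OHT and 91.2, 91.6 and 88.4 CPM in Ctr. No *Smg6*-iKO library reached the lowest control. *Dbf4* fell by 26.2% against Ctr + 4-OHT (log2 fold change -0.44 ± 0.08 SE, edgeR adjusted p = 0.0358), a call that remained in 2 of 8 fits without 1 library (those without embryo SMH_129 of Ctr + 4-OHT or SMH_128 of *Smg6*-iKO, with a range of -0.50 to -0.37 over the 8). It fell by 0.36 on the log2 scale against Ctr (± 0.07 SE, edgeR adjusted p = 0.00968, kept in all 7). The catalytic partner *Cdc7* had much smaller values, -0.17 ± 0.06 against Ctr + 4-OHT and -0.06 ± 0.05 against Ctr (SE), and was called in neither comparison nor with the block. Whether the fold changes of *Dbf4* and *Cdc7* differ was not tested.

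CDC45 and the 4 GINS proteins join the MCM ring to make the active helicase. *Gins1* had the largest difference of these against Ctr + 4-OHT, at 8.22, 9.64, 9.06 and 9.97 CPM in *Smg6*-iKO, 12.9, 11.1, 13.7 and 13.8 CPM in Ctr + 4-OHT and 10.7, 11.4 and 13.0 CPM in Ctr. The groups did not overlap, but the log2 fold changes of -0.47 ± 0.10 and -0.345 ± 0.10 (SE) did not pass the test (edgeR adjusted p of 0.0551 and 0.0604), and the gene was called with the embryo block (edgeR adjusted p = 0.0266) and under 4 of 8 other settings against Ctr + 4-OHT.

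*Gins4* differed least, at 21.9, 24.3, 23.2 and 22.8 CPM in *Smg6*-iKO, 26.5, 23.2, 26.4 and 26.6 CPM in Ctr + 4-OHT and 24.9, 25.2 and 26.0 CPM in Ctr. It overlapped Ctr + 4-OHT only through the library of embryo SMH_126, and its log2 fold changes were -0.14 ± 0.07 and -0.14 ± 0.06 (SE). In Ctr the 4 GINS genes ran from 3.46 ± 0.198 CPM per kb of exon (*Gins3*) to 18.8 ± 0.44 (*Gins4*, SD, n = 3). Between them lay *Gins2* at 6.59 ± 0.598 and *Gins1* at 7.73 ± 0.75, which did not differ beyond their SD. This order depends on the annotated exon length, 4097 bases for *Gins2* and 1349 for *Gins4*. Before division by length these 2 genes stood close together in Ctr, at 27.0 ± 2.45 and 25.4 ± 0.594 CPM (SD).

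The 6 genes of the clamp and its loader had a median log2 fold change of -0.26 against each control. PCNA is the ring that tethers polymerases to DNA, and the 5 subunits of replication factor C open it and place it on the template. Their sum was 347 to 367 CPM in *Smg6*-iKO, 389 to 446 CPM in Ctr + 4-OHT and 399 to 451 CPM in Ctr. *Rfc2* was called lower against Ctr + 4-OHT, and *Pcna*, *Rfc1*, *Rfc2* and *Rfc3* against Ctr (edgeR). *Pcna* itself only just passed, at -0.31 ± 0.09 (SE, edgeR adjusted p = 0.0499), and kept that call in 1 of 7 fits without 1 library (the one without embryo SMH_128 of Ctr) and lost it under 4 of 10 other settings.

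*Rfc2* (ENSMUSG00000023104, chromosome 5 of GRCm38, from 134581366 to 134601805) stood at 58.4, 61.0, 56.0 and 62.3 CPM in *Smg6*-iKO, at 72.7, 69.7, 75.0 and 77.0 CPM in Ctr + 4-OHT and at 72.2, 70.3 and 74.0 CPM in Ctr. Its spread within groups was small and the groups were apart. *Rfc2* fell by 18.6% against Ctr + 4-OHT (log2 fold change -0.30 ± 0.06 SE, edgeR adjusted p = 0.0382) and by 0.28 on the log2 scale against Ctr (± 0.06 SE, edgeR adjusted p = 0.0175). The first call was kept in 1 of 8 fits without 1 library (that without embryo SMH_126, range -0.33 to -0.28). The second was kept in 6 of 7, and without embryo SMH_128 of Ctr the edgeR adjusted p was 0.0621.

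*Rfc4* had the largest fold change of this group against Ctr + 4-OHT, with 27.9, 30.1, 26.4 and 28.5 CPM in *Smg6*-iKO, 32.8, 31.6, 38.9 and 36.9 CPM in Ctr + 4-OHT and 31.1, 32.7 and 34.4 CPM in Ctr. The groups were apart, but the log2 fold changes of -0.30 ± 0.08 and -0.21 ± 0.06 (SE) did not pass the test. It was called against Ctr with the embryo block (edgeR adjusted p = 0.0342), and in each comparison by DESeq2's Wald test.

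*Rfc1*, the large subunit, had the smallest change against Ctr + 4-OHT. It was at 117.5, 119.6 and 115.2 CPM in embryos SMH_127, SMH_132 and SMH_133 of *Smg6*-iKO, 133.9, 128.4, 150.1 and 137.2 CPM in Ctr + 4-OHT and 133.7, 150.3 and 140.7 CPM in Ctr. The *Smg6*-iKO library of embryo SMH_128 lay between the 2 lowest Ctr + 4-OHT libraries, and all 4 lay below Ctr. The log2 fold change was -0.18 ± 0.06 (SE, edgeR adjusted p = 0.172) against Ctr + 4-OHT and -0.23 ± 0.06 (SE, edgeR adjusted p = 0.0367) against Ctr.

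None of the 8 polymerase genes was called against Ctr + 4-OHT by edgeR. All 8 had an unadjusted p under 0.05, as did 2930 of all 17558 genes tested. DESeq2's Wald test, which called more of all genes than edgeR, called 4 of the 8. Against Ctr, *Prim1*, *Pold1* and *Pold2* fell. Polymerase alpha-primase (*Pola1*, *Pola2*, *Prim1*, *Prim2*) starts each new strand with a short primer, polymerase delta (*Pold1*, *Pold2*) extends the lagging strand and polymerase epsilon (*Pole*, *Pole2*) the leading strand. Their median log2 fold changes were -0.22 and -0.18, and all 8 were lower in *Smg6*-iKO in each of the 3 paired embryos.

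*Prim1*, the catalytic subunit of primase, was at 30.8, 31.5, 30.3 and 32.1 CPM in *Smg6*-iKO, 39.0, 35.3, 45.8 and 39.6 CPM in Ctr + 4-OHT and 35.5, 38.2 and 40.5 CPM in Ctr. *Smg6*-iKO libraries were close together and below all controls. The log2 fold change was -0.35 ± 0.08 (SE, edgeR adjusted p = 0.0707) against Ctr + 4-OHT and -0.29 ± 0.06 (SE, edgeR adjusted p = 0.0191) against Ctr. *Pold2*, an accessory subunit of polymerase delta, was at 66.2, 74.8, 73.3 and 75.3 CPM in *Smg6*-iKO, 77.4, 82.0, 84.8 and 77.6 CPM in Ctr + 4-OHT and 86.4, 81.1 and 92.6 CPM in Ctr. The groups were apart, with log2 fold changes of -0.14 ± 0.06 (SE, edgeR adjusted p = 0.271) and -0.26 ± 0.07 (SE, edgeR adjusted p = 0.0373).

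The 2 subunits of polymerase epsilon and those of polymerase alpha were not called against either control or with the block (edgeR), though *Pola1* was called against Ctr + 4-OHT by DESeq2's Wald test, and *Pola1* and *Pole2* against Ctr with the block and the length correction together. Their log2 fold changes ran from -0.25 (*Pole2*) to -0.18 (*Pola1*) against Ctr + 4-OHT and from -0.21 (*Pole2*) to -0.13 (*Pole*) against Ctr. The noncatalytic primase subunit *Prim2* was -0.29 ± 0.07 against Ctr + 4-OHT (edgeR adjusted p = 0.0687) and -0.14 ± 0.06 against Ctr.

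Genes that handle single strands and finish the lagging strand were more mixed. RPA1 and RPA2 coat single-stranded DNA, FEN1 and DNA2 trim flaps, RNASEH2A is the catalytic subunit of an enzyme that removes RNA from DNA, and LIG1 joins the fragments. Of these 6 genes none was called against Ctr + 4-OHT by edgeR, and 5 had an unadjusted p under 0.05, as did 2930 of all 17558 genes tested. DESeq2's Wald test, which called more of all genes than edgeR, called 4 of the 6. *Rpa1* (-0.28 ± 0.06 SE) and *Lig1* (-0.24 ± 0.06 SE) fell against Ctr (edgeR adjusted p of 0.019 and 0.0302).

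*Rpa2* was at 33.7, 37.8, 35.5 and 40.1 CPM in *Smg6*-iKO, 46.2, 39.1, 46.6 and 50.6 CPM in Ctr + 4-OHT and 39.3, 40.7 and 45.5 CPM in Ctr. Its highest *Smg6*-iKO library, embryo SMH_133, overlapped the lowest library of each control. The log2 fold changes were -0.30 ± 0.09 and -0.18 ± 0.08 (SE, edgeR adjusted p of 0.126 and 0.144).

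*Rnaseh2a* was the member nearest to 0 against Ctr, at 35.1, 37.2, 35.7 and 39.6 CPM in *Smg6*-iKO, 41.3, 35.1, 41.8 and 38.3 CPM in Ctr + 4-OHT and 36.3, 36.7 and 39.3 CPM in Ctr. The groups overlapped. Its log2 fold changes were -0.08 ± 0.07 and -0.02 ± 0.06 (SE), and the sign against Ctr turned with upper-quartile normalization, with the embryo block and in 2 fits without 1 library.

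Of the 4 genes that supply deoxynucleotides, *Rrm1*, *Rrm2* and *Tk1* were lower and *Tyms* was near 0. Ribonucleotide reductase (*Rrm1*, *Rrm2*) makes deoxynucleotides, while thymidylate synthase (*Tyms*) and thymidine kinase (*Tk1*) make the thymidine nucleotide anew or by salvage. No gene of the 4 was called against Ctr + 4-OHT by edgeR, and 3 had an unadjusted p under 0.05, as did 2930 of all 17558 genes tested. DESeq2's Wald test, which called more of all genes than edgeR, called those 3. *Rrm1* (-0.31 ± 0.06) and *Rrm2* (-0.28 ± 0.07, log2 ± SE) fell against Ctr (edgeR adjusted p of 0.0107 and 0.0319), and *Tk1* was added by the embryo block (-0.25, edgeR adjusted p = 0.00951).

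*Tk1* was at 27.5, 27.8, 27.9 and 32.3 CPM in *Smg6*-iKO, 38.3, 33.4, 41.9 and 38.3 CPM in Ctr + 4-OHT and 31.4, 35.8 and 37.6 CPM in Ctr. It was apart from Ctr + 4-OHT and overlapped Ctr, with the highest *Smg6*-iKO library from embryo SMH_133 and the lowest Ctr library from embryo SMH_128. The log2 fold changes were -0.38 ± 0.08 (SE, edgeR adjusted p = 0.0602) and -0.27 ± 0.08 (SE, edgeR adjusted p = 0.0587).

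*Tyms* was at 25.3, 23.2, 24.1 and 27.0 CPM in *Smg6*-iKO, 27.0, 20.9, 28.0 and 28.6 CPM in Ctr + 4-OHT and 23.1, 25.8 and 27.4 CPM in Ctr. All 3 groups overlapped. Its log2 fold changes were -0.06 ± 0.10 and -0.03 ± 0.08 (SE), and the sign against Ctr turned with upper-quartile normalization and in 2 fits without 1 library. Whether *Tyms* differed from *Rrm1*, *Rrm2* or *Tk1* in its response was not tested.

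The 18 genes called in none of the 3 fits of *Smg6*-iKO were *Orc2*, *Orc3*, *Orc5*, *Cdc6*, *Cdt1*, *Gins4*, *Cdc7*, *Rfc5*, *Pola1*, *Pola2*, *Prim2*, *Pole*, *Pole2*, *Rpa2*, *Fen1*, *Dna2*, *Rnaseh2a* and *Tyms*. Of these, only *Orc5* had a positive log2 fold change against both controls.

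Ratios within the embryos that gave both a Ctr and a *Smg6*-iKO library were taken next, since these share genotype and animal and differ, per the labels, in 4-OHT. The replication genes were lower in *Smg6*-iKO for 40 of 47 in embryo SMH_128, 46 in embryo SMH_132 and 44 in embryo SMH_133, with median log2 ratios of -0.11, -0.22 and -0.25. Over all genes 49.3%, 50.6% and 49.4% were lower. A gene was lower in all 3 embryos for 40 of the 47, where 25.9% of all genes tested were. The size differed between embryos, embryo SMH_128 being the smallest in median, and licensing genes had a median of 0.06 in embryo SMH_128 against -0.18 and -0.15 in the others. All MCM, activation, clamp and polymerase genes were lower in each of the 3 embryos. Embryo SMH_128 was also the Ctr library with the lowest levels of 38 of the 47 genes. The part of this library in the smaller ratio was not tested.

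**Figure D5:**
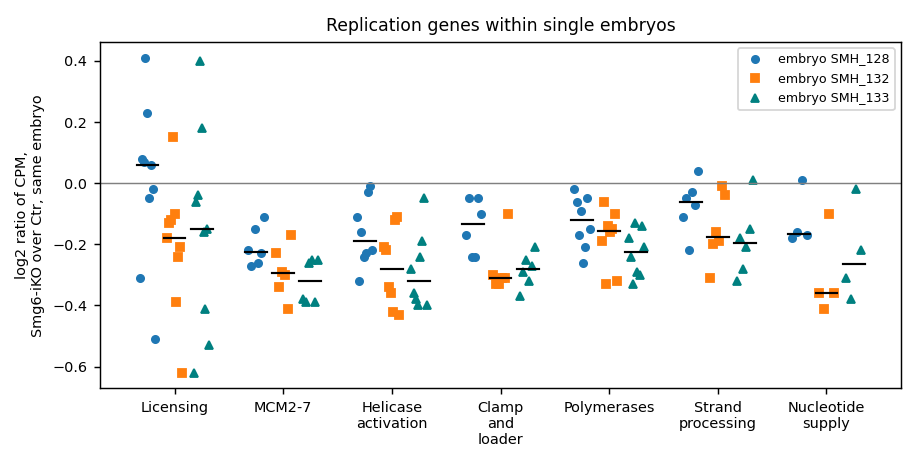
Log2 ratio of CPM in *Smg6*-iKO over Ctr from the same embryo (y axis) for the 47 genes by complex (x axis), with embryos SMH_128 (blue circles), SMH_132 (orange squares) and SMH_133 (green triangles). Points are genes and black lines are medians. Most points lie below 0 in every embryo, and *Orc4* is the highest point of the licensing column in each of them.

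The controls were compared with each other to see how far the groups differ without deletion, since they differ in both 4-OHT and the Cre transgene. None of the 47 genes was called between Ctr + 4-OHT and Ctr (edgeR, at a background of 0.221% of 17665 genes, 0.181% lower and 0.0396% higher), none had an unadjusted p under 0.05, and DESeq2's Wald test called 0. No gene separated the 2 control groups, where 4.91% of all genes tested were lower and 3.8% higher with no overlap. The median log2 fold change was 0.04, with a range from -0.11 (*Pold2*, ± 0.07 SE) to 0.19 (*Orc2*, ± 0.09 SE). Its sign was not firm, at -0.02 without embryo SMH_128 of Ctr and 0.10 without embryo SMH_133 of Ctr or SMH_126 of Ctr + 4-OHT. These 3 comparisons share libraries and are not independent of each other.

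Other genes of the same processes were counted from 2 lists. Over all genes tested, 0.416% were called lower against Ctr + 4-OHT, and 4.98% lower and 4.27% higher against Ctr. Among 30 other fork genes (remaining subunits of the polymerases, RPA and RNase H2, origin firing factors, fork protection, alternative clamp loaders, chromatin assembly and topoisomerases), 1 was called lower against Ctr + 4-OHT and 5 against Ctr (edgeR), with medians of -0.17 and -0.16. Among 12 other genes of nucleotide metabolism, 1 was called lower against Ctr + 4-OHT, and 1 lower and 1 higher against Ctr, with medians of -0.16 and -0.09. With the embryo block, 13 of the 30 were called lower, and 3 of the 12 lower and 1 higher, at backgrounds of 11.2% lower and 10.3% higher. Whether these lists differ from the 47 genes was not tested.

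Only *Rnaseh2b*, a noncatalytic subunit of RNase H2, was called in both comparisons. It was at 23.9, 27.6, 25.2 and 26.2 CPM in *Smg6*-iKO, 30.6, 34.0, 38.3 and 33.2 CPM in Ctr + 4-OHT and 33.1, 35.1 and 33.3 CPM in Ctr, with no overlap. Its log2 fold change was -0.395 ± 0.08 (SE, edgeR adjusted p = 0.0469) and -0.40 ± 0.07 (SE, edgeR adjusted p = 0.00669), whereas the catalytic subunit *Rnaseh2a* was not called. The first of these calls remained in 1 of 8 fits without 1 library (that without embryo SMH_125, range -0.45 to -0.34) and was lost with upper-quartile normalization and limma-voom, and the second remained in all 7.

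Markers of dividing cells moved with the replication genes. The 7 listed genes of mitosis and proliferation (*Mki67*, *Cdk1*, *Ccnb1*, *Aurkb*, *Birc5*, *Bub1* and *Plk1*) were all lower in *Smg6*-iKO, with medians of -0.38 and -0.40. Of them, 3 were called lower against Ctr + 4-OHT (background 0.416%) and all 7 against Ctr (background 4.98%, edgeR). Their sum was 993 to 1120 CPM in *Smg6*-iKO, 1290 to 1590 CPM in Ctr + 4-OHT and 1410 to 1470 CPM in Ctr, with no overlap. Their part in the result was not tested.

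Of the 8 neural progenitor markers, none was called against Ctr + 4-OHT by edgeR (2 with an unadjusted p under 0.05, and 1 called by DESeq2's Wald test). Against Ctr 4 were called lower (*Sox2*, *Pax6*, *Hes5* and *Fabp7*, background 4.98%), or 5 with the embryo block, which added *Sox9* (background 11.2%). The largest fold changes were those of *Hes5*, at -0.69 ± 0.15 against Ctr + 4-OHT and -1.28 ± 0.16 against Ctr (SE, edgeR adjusted p of 0.0647 and 0.00186). The 8 markers summed to 4330 to 4890 CPM in *Smg6*-iKO, 4420 to 5430 CPM in Ctr + 4-OHT and 5000 to 5200 CPM in Ctr. These sums are ruled by *Vim*, *Fabp7* and *Nes* and say little of the rarer markers. Of the 6 neuronal markers none was called against either control by edgeR. Against Ctr 4 had an unadjusted p under 0.05, where 4834 of all 17974 genes tested did. DESeq2's Wald test called 4 of the neuronal markers higher and so did edgeR with the embryo block (background 10.3%). Their sums were 2020 to 2330, 1590 to 2580 and 1740 to 1900 CPM. The part of either list in the result was not tested.

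The 5 mesenchymal markers were called in neither comparison by edgeR (1 of 5 with an unadjusted p under 0.05 in each, 0 called by DESeq2's Wald test). They summed to 233 to 1240 CPM in *Smg6*-iKO, 251 to 710 CPM in Ctr + 4-OHT and 304 to 441 CPM in Ctr. Without embryo SMH_127, the *Smg6*-iKO library with the highest mesenchymal sum, the median log2 fold change of the 47 genes was -0.24 against Ctr + 4-OHT and -0.22 against Ctr, with 0 of the 47 called in the first (edgeR) and 13 in the second. With the embryo block *Pdgfrb* fell (-0.41, edgeR adjusted p = 0.00864) and *Col1a1* rose (0.26, edgeR adjusted p = 0.0289) against Ctr, at backgrounds of 11.2% lower and 10.3% higher. The part of these markers in the result was not tested. The 5 endothelial markers summed to 4.73 to 7.58 CPM over all libraries.

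The 4 astrocyte markers summed to 428 to 516 CPM over all libraries, most of it *Aldh1l1*. *Gfap*, the filament protein of astrocytes, was at 63.6, 47.6, 40.4 and 25.7 CPM in *Smg6*-iKO, 21.4, 11.5, 5.14 and 78.2 CPM in Ctr + 4-OHT and 26.2, 16.1 and 10.6 CPM in Ctr. The *Smg6*-iKO libraries overlapped both controls, and *Gfap* rose against Ctr (log2 fold change 1.325 ± 0.32 SE, edgeR adjusted p = 0.0288). None of the 4 was called against Ctr + 4-OHT by edgeR or by DESeq2's Wald test, and none had an unadjusted p under 0.05. With the embryo block *Gfap* and *S100b* rose against Ctr. The 5 oligodendrocyte markers summed to 47.3 to 89.3 CPM in *Smg6*-iKO, 53.5 to 91.0 CPM in Ctr + 4-OHT and 55.3 to 72.3 CPM in Ctr, with *Mog* below 0.1 CPM in every library. None was called against either control by edgeR or DESeq2's Wald test (0 and 1 with an unadjusted p under 0.05), and with the embryo block *Mbp* and *Mag* rose against Ctr. The part of either list in the result was not tested.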

How the data were processed

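RNA of 11 NPC cultures was sequenced as stranded, rRNA-depleted libraries with single reads. Per the submitters' processing notes and the study's methods, the authors extracted reads with bcl2fastq 1.8.4, mapped them to GRCm38 with STAR 2.5.4b and counted reads of 1 position and 1 Ensembl gene with featureCounts 1.5.0, and they deposited raw counts per gene without normalization. Reads that map to several positions were not counted, which lowers the values of genes with near-identical copies. Of 53801 identifiers, 53620 were given a symbol by GENCODE M21, and all 47 listed genes were matched. The members and all lists were chosen with earlier results of these data known.

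Fits used R 4.3.3 and edgeR 4.0.16 on the whole table (filterByExpr, TMM, quasi-likelihood test, Benjamini-Hochberg, threshold of adjusted p under 0.05), each comparison on its own groups. The SE of a log2 fold change was taken as its size over the square root of F. CPM were computed after TMM over 11 libraries and 18123 genes. A count of genes "not overlapping" uses these CPM. Libraries of embryos SMH_128, SMH_132 and SMH_133 are paired by the titles. The deviations from the group means of same-embryo libraries correlated at 0.328 to 0.425 across 18123 genes, and those of different embryos at -0.265 to 0.095. No pair of libraries of a group was a duplicate, with chi-square values per gene of 10.9 to 42.1.

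Values are given library by library for the genes called against Ctr + 4-OHT, and in each of the 7 classes for the genes with the largest and the smallest absolute log2 fold change in that comparison. Alternatives were DESeq2 size factors, upper-quartile normalization, no filter, at least 10 counts in every library, DESeq2 1.42.0, limma-voom (limma 3.58.1), all 11 libraries in one fit, a correction for gene length (loess span 0.3), the embryo block with and without that correction, and each library left out. The fits were tested on simulated counts with known changes. Promoter sequences came from RefSeq (GRCm38.p6). Plots were made in matplotlib 3.10.9 (Python 3.11.15, with pandas 2.3.3).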

Additional observations from a re-analysis of the deposited data

Results flagged for a closer look

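Among the 94 sets of 4 libraries (47 genes in *Smg6*-iKO and in Ctr + 4-OHT), 8 had a library whose gap to the nearest other took a larger share of the whole range than Dixon's 95% limit for 4 samples allows. Chance flags about 1 in 20 such sets, and genes of the same libraries are not independent. In *Smg6*-iKO the library of embryo SMH_133 was the highest for *Mcm3* (108 CPM, the others 98.5 to 99.1), *Mcm5* (102 CPM, the others 83.4 to 85.8), *Pcna* (95.3 CPM, the others 83.0 to 84.8) and *Tk1* (32.3 CPM, the others 27.5 to 27.9). The library of embryo SMH_128 was the highest for *Dbf4* (78.5 CPM, the others 66.8 to 68.0). In Ctr + 4-OHT the library of embryo SMH_126 was the lowest for *Mcm5* (102 CPM, the others 120 to 122) and *Gins4* (23.2 CPM, the others 26.4 to 26.6). That of embryo SMH_129 was the highest for *Dbf4* (111 CPM, the others 90.5 to 91.2). No cause was tested.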

How the results depend on the processing

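The median log2 fold change of the 47 genes stayed between -0.31 and -0.23 against Ctr + 4-OHT and between -0.28 and -0.19 against Ctr over all alternatives, left-out libraries included, and at least 43 of the 47 genes were negative in each. Between the controls it ran from -0.02 to 0.10. The number of genes past the threshold was less stable. Against Ctr + 4-OHT, where 5 of the 47 and 206 of all genes were called, no filter on low counts gave 13 and 418, DESeq2's Wald test 26 and 873, all 11 libraries in one fit 19 and 484, and the length correction 14 of the 47. Leaving out 1 library gave 0 to 12 of the 47 and 66 to 174 of all genes. Against Ctr, where 20 and 1663 were called, all genes called were 2714 with no filter and 796 with all 11 libraries. Leaving out 1 library gave 7 to 19 and 570 to 2524. Between the controls, where 39 of all genes were called, no filter gave 198, DESeq2 169 and all 11 libraries 60, with 5 to 54 when 1 library was left out. The cause of these shifts was not tested.

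The embryo as a replicate block, for the libraries paired by embryo, called 29 of the 47 and 3854 of all genes against Ctr, and 33 and 4076 together with the length correction. Of the 47, each gene called without the block stayed called with it. The sign against Ctr turned for *Rnaseh2a* (-0.02) with upper-quartile normalization (0.012) and with the block (0.002), with -0.059 to 0.011 over left-out libraries. For *Tyms* (-0.03) it turned with upper-quartile normalization (0.004), with -0.092 to 0.025 over left-out libraries. *Orc5* against Ctr + 4-OHT (0.06) turned to -0.009 without embryo SMH_125 of Ctr + 4-OHT, with values up to 0.092 over left-out libraries. None of these 3 genes was called in those fits, and the other members kept their sign in both comparisons of *Smg6*-iKO. Single-gene calls moved more often: over the 47 genes and *Rnaseh2b*, 67 of the values under another setting gained a call and 44 lost one against Ctr + 4-OHT, and 43 gained and 68 lost one against Ctr. With 3 or 4 libraries a group, a gene that missed the threshold is not shown to be unchanged.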
